A study of Mus musculus with 2 samples.

Results

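The Gimap genes encode GTPases of immunity-associated proteins, a family with a common GTP-binding domain. All 8 members named for this work (Gimap1, Gimap3, Gimap4, Gimap5, Gimap6, Gimap7, Gimap8 and Gimap9) were found by symbol among the 28692 genes of both matrices, and no member was below the minimum of 100 UMIs used to describe a gene. The cells were splenic CD4 regulatory T cells (Tregs) of male B6 Pparg-Tdt.Foxp3-Gfp mice, 8 weeks old, so both groups carried the red reporter of Pparg and the green reporter of Foxp3. One sort took Tregs low in PPARg and the other Tregs without it, each from a pool of 2 or 3 mice and each made into 1 droplet library of 3′ ends. The deposited names of the PPARg-low library carry the word pos; the label's word is used here.

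GIMAP proteins are known mainly from lymphocytes, where they sit on internal membranes such as those of lysosomes, mitochondria and the endoplasmic reticulum. They bind GTP through a domain related to that of septins, and the family is known for its part in the survival of resting T and B cells. Mice and rats without a working Gimap5 lose peripheral T cells, and mouse Gimap3 and Gimap5 have been reported to bind proteins of the BCL2 family.

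The 8 genes lie together within 123.6 kb of mouse chromosome 6 (mm10, 48647234 to 48770851). In order they are Gimap8 (ENSMUSG00000064262, 48647234 to 48660875), Gimap9 (ENSMUSG00000051124, 48676129 to 48679114), Gimap4 (ENSMUSG00000054435, 48684549 to 48692060) and Gimap6 (ENSMUSG00000047867, 48701582 to 48708225). They continue with Gimap7 (ENSMUSG00000043931, 48718621 to 48724636), Gimap1 (ENSMUSG00000090019, 48739054 to 48743795), Gimap5 (ENSMUSG00000043505, 48746197 to 48754210) and Gimap3 (ENSMUSG00000039264, 48764464 to 48770851). Gimap6 and Gimap3 are on the minus strand and the other 6 on the plus strand.

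**Figure D1:**
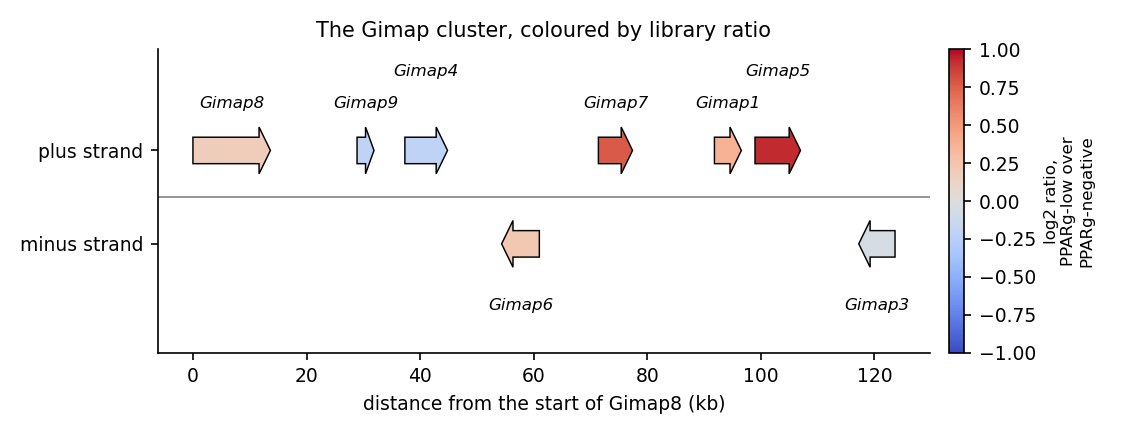
Map of the Gimap cluster. The horizontal axis is the distance in kb from the start of Gimap8, arrows are gene spans pointing in the direction of transcription, and colour is the log2 ratio of CPM in the PPARg-low over the PPARg-negative library; Gimap7, Gimap1 and Gimap5, side by side, have ratios of 1.70, 1.29 and 1.903, and Gimap9 and Gimap4 have 0.867 and 0.865.

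Some members share sequence or exons, which bears on how their UMIs were assigned. The longest run of identical bases between transcripts of 2 members was 140 bases, between Gimap3 and Gimap5, against 17 bases for the next pair. Of the 50-base words in the last 500 bases of Gimap3 and Gimap5 transcripts, where 3′ counting draws most of its tags, 0 occurred in the other gene. The gene Gm28053, annotated across Gimap7, Gimap1 and Gimap5, overlapped 3.48, 6.44 and 3.69% of their exonic bases and 0% of their last 500. It had 7 UMIs in the PPARg-low and 3 in the PPARg-negative library.

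The start regions of 4 members are printed because 2 of them, Gimap5 and Gimap7, had the largest library ratios of the family and the others, Gimap4 and Gimap9, the smallest. Each is 250 bases before to 50 bases after the RefSeq start (GRCm38.p6), plus strand: Gimap5 at chr6:48745947-48746246, Gimap7 at chr6:48718371-48718670, Gimap4 at chr6:48684328-48684627 and Gimap9 at chr6:48675885-48676184. Capitals mark matches, on either strand, to short motifs of factors known in T cells or of nuclear receptors.
Gimap5: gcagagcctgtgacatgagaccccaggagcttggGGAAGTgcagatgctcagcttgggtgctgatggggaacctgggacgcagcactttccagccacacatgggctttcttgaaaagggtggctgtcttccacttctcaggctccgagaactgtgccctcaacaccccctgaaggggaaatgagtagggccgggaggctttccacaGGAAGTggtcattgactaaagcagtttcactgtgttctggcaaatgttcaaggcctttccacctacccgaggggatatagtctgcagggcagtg
Gimap7: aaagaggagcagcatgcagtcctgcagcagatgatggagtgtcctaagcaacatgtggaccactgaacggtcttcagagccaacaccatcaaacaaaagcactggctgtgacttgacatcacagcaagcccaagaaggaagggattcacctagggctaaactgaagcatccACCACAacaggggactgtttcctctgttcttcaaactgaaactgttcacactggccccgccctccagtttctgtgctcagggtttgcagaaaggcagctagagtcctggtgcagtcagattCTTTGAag
Gimap4: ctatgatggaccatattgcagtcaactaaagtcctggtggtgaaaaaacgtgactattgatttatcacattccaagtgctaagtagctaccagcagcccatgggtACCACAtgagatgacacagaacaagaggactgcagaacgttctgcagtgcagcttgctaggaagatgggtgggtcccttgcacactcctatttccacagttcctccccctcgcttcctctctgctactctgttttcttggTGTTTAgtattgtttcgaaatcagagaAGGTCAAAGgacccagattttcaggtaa
Gimap9: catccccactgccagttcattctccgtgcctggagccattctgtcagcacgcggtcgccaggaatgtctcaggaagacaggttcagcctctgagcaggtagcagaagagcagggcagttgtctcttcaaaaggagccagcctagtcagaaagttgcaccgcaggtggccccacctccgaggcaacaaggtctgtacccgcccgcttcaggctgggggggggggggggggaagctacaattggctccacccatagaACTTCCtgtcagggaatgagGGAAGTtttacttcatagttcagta
The 6 motifs searched were GGAAGT (ETS), TGTGGT (RUNX), TGTTTA (forkhead), CTTTGA (TCF/LEF), AGGTCA (nuclear receptor half-site) and TGANTCA (AP-1). Gimap5 and Gimap9 each had 2 ETS matches and no other. Of 32851 windows of this length 23.8% held 1 or more ETS matches, and the share with 2 was not counted. Gimap1 and Gimap6, whose windows are not printed, had 1 ETS match each. Gimap7 had 1 RUNX match (16.8% of windows) and 1 TCF/LEF match (16.003%). Gimap4 had 1 RUNX match, 1 forkhead match (13.4%) and 1 TCF/LEF match that overlapped its 1 nuclear receptor half-site (16.3%), and no window of the 8 genes held the AP-1 letters (7.81%). A match describes the letters of these windows and not binding.

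The PPARg-low library held 1619 kept cells with 2901710 UMIs (unique molecular identifiers, 1 per captured transcript) and the PPARg-negative library 2633 cells with 5897260 UMIs. Median depth was 1517 and 2171 UMIs per cell. Levels are given as CPM, UMIs per 1e6 UMIs of the cells summed, with 95% intervals that cover counting error only; 3′ tags were counted once per transcript, and levels were not compared between genes. Each group was 1 library, so the spread between replicates is unknown, no test was possible, and cells of a library were not used as replicates. Cells under 20% of UMIs from ribosomal protein genes, called ribosome-poor, were 958 of 1619 (59.2%, exact binomial 56.7 to 61.6%) in the PPARg-low and 623 of 2633 (23.7%, 22.0 to 25.3%) in the PPARg-negative library. Klrg1, a receptor of terminally differentiated lymphocytes, had 1 or more UMIs in 899 and 141 cells (55.5 and 5.36%). Of the Treg markers, 6 of 6 were detected in both libraries, with a summed level of 4689 and 2148 CPM. Markers of other cells were low: B cell 33.4 and 27.8, CD8 T cell 31.0 and 27.6, erythroid 12.1 and 1.53, myeloid 7.93 and 2.54 and NK cell 3.79 and 1.19 CPM, with S100a8, S100a9, Ncr1, Klra8 and both platelet markers, Pf4 and Ppbp, at 0 UMIs; their part in the results was not tested.

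As a whole the family was close to even between the libraries, while its members lay on both sides of even. The 8 genes together had 11481 UMIs, 3957 CPM, in the PPARg-low library and 20363 UMIs, 3453 CPM, in the PPARg-negative library. The ratio was 1.15 (1.12 to 1.17) per all UMIs, but it was 0.964 per UMIs that are neither ribosomal nor mitochondrial, so its direction depended on the scale. The median log2 ratio of all 6750 genes with 100 or more UMIs was 0.27, and relative to it the family lay at -0.07. Single members ranged from 0.865-fold to 1.903-fold, with a median log2 ratio of 0.20 over the 8.

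By size, 2 of the 8 members were at least 1.5 times higher in the PPARg-low library and 0 were lower by as much. Of all tested genes 23.3% were higher and 4.36% lower by that size, and among genes with 500 or more UMIs, as all members had, 16.8% were higher and 6.42% lower, so 2 of 8 is near the background. Gimap5, which is needed for the survival of peripheral T cells, had 870 UMIs or 299.8 CPM (280.2 to 320.4) in the PPARg-low library and 929 UMIs or 157.5 CPM (147.6 to 168.0) in the PPARg-negative library. Its ratio of 1.903 (1.73 to 2.09) exceeded that of 91.1% of tested genes, and it was 1.60 per UMIs that are neither ribosomal nor mitochondrial. Gimap7, whose human protein is known to hydrolyse GTP as a dimer, had 1417 UMIs or 488 CPM (463 to 514) and 1693 UMIs or 287 CPM (274 to 301). That is a ratio of 1.70 (1.58 to 1.83), or 1.43 on the scale without ribosomal and mitochondrial UMIs.

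Gimap4 and Gimap9 lay on the other side. Gimap4, reported to speed the death of T cells, had 1733 UMIs or 597 CPM (569 to 626) in the PPARg-low library and 4070 UMIs or 690.2 CPM (669 to 712) in the PPARg-negative library. The ratio was 0.865 (0.818 to 0.916), within 1.5 times of even, and 11.8% of tested genes had a smaller one. Gimap9 had 609 UMIs or 209.9 CPM (194 to 227) and 1428 UMIs or 242.1 CPM (229.7 to 255), a ratio of 0.867 (0.787 to 0.954). On the scale without ribosomal and mitochondrial UMIs the 2 ratios were 0.728 and 0.729. Thus the intervals of these 2 members and of Gimap5 and Gimap7 lay on opposite sides of even on the scale of all UMIs.

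The other 4 members were between these. Gimap1, which mature T and B cells of mice require, had 967 CPM (932 to 1003) in the PPARg-low and 748 CPM (727 to 771) in the PPARg-negative library, a ratio of 1.29 (1.23 to 1.35) that was 1.09 without ribosomal and mitochondrial UMIs. Gimap6, whose human protein binds the autophagy protein GABARAPL2, had 589 (561 to 618) and 505 CPM (487 to 524). Its ratio was 1.17 (1.10 to 1.24), and it turned to 0.980 on the other scale. Gimap3, a protein of mitochondrial or endoplasmic reticulum membranes in mice, had 734 (703 to 766) and 759 CPM (737 to 782), a ratio of 0.967 (0.918 to 1.02) that was 0.813 on the other scale. Gimap8, which carries several GTP-binding domains in a row, had 71.3 CPM (61.9 to 81.7, 207 UMIs) and 63.1 CPM (56.8 to 69.8, 372 UMIs), a ratio of 1.13 (0.949 to 1.34), or 0.951 on the other scale. Per all UMIs the intervals of Gimap3 and Gimap8 included even.

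**Figure D2:**
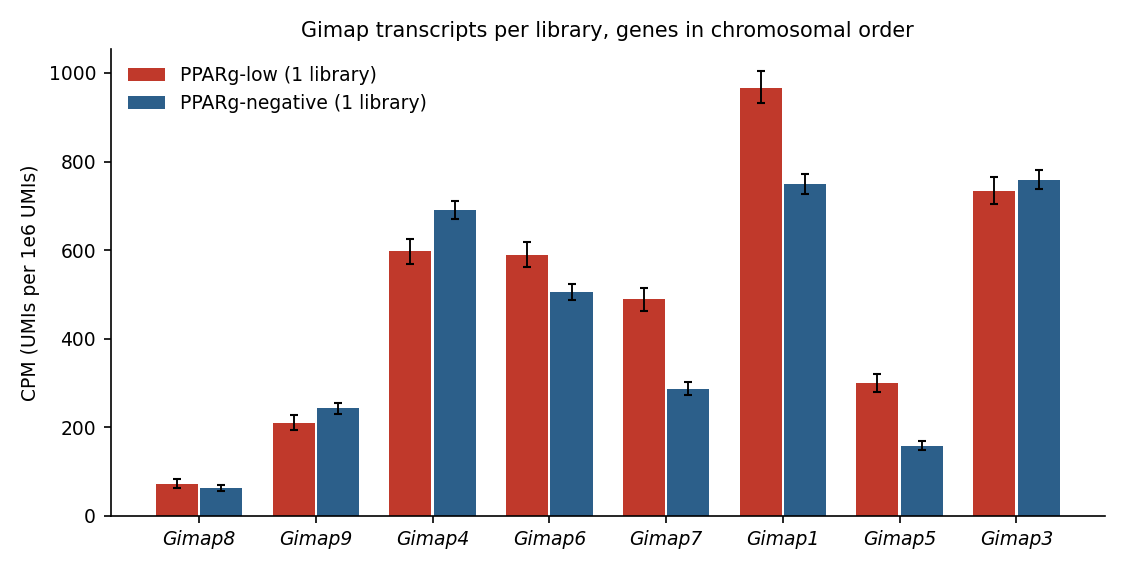
Level in CPM (UMIs per 1e6 UMIs) of the 8 members in chromosomal order. Bars are 1 library each and error bars are exact Poisson 95% intervals of the counts; the PPARg-low bar of Gimap5 reaches 299.8 and the PPARg-negative bar 157.5, and those of Gimap4 reach 597 and 690.2.

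A measure that needs no scaling is the share of all Gimap UMIs that each member takes. The shares are parts of the same total, so larger shares of some members lower those of the others. Gimap5 took 7.58% (7.10 to 8.08%) of the family's UMIs in the PPARg-low library and 4.56% (4.28 to 4.86%) in the PPARg-negative library. Gimap7 took 12.3% (11.7 to 13.0%) and 8.31% (7.94 to 8.70%). Gimap1 took 24.4% (23.7 to 25.2%) and 21.7% (21.1 to 22.2%). The share was smaller in the PPARg-low library for 3 members: Gimap4 with 15.1% (14.4 to 15.8%) and 19.99% (19.4 to 20.5%), Gimap3 with 18.6% (17.8 to 19.3%) and 22.0% (21.4 to 22.6%), and Gimap9 with 5.30% (4.90 to 5.73%) and 7.01% (6.67 to 7.37%). Gimap6, with 14.9 and 14.6%, and Gimap8, with 1.80 and 1.83%, had overlapping intervals.

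The libraries differed in ribosomal share, so the comparison was repeated within both kinds of cells. The split did not make the share equal. Its median was 27.4% in ribosome-rich cells of the PPARg-low and 37.1% in those of the PPARg-negative library. In ribosome-poor cells the medians were 9.95 and 12.3%. Ribosome-poor cells had a median of 6.77 and 6.91% mitochondrial UMIs and 8.10 and 7.97% Malat1 UMIs in the PPARg-low and PPARg-negative library, against 2.74 and 2.29% and 3.49 and 2.46% in ribosome-rich cells; the part of these in the results was not tested. In ribosome-rich cells Gimap5 was 1.97-fold (1.76 to 2.20) and Gimap7 1.73-fold (1.58 to 1.88) higher in the PPARg-low library. Those 2 of 8 members were past 1.5-fold, beside 16.6% of 5738 tested genes that were higher and 4.3% that were lower by as much. In ribosome-poor cells Gimap5 lay at 1.47 (1.21 to 1.80) and Gimap7 at 1.34 (1.16 to 1.56), so 0 of 8 members were past that size in either direction, beside 7.4% of 2959 genes higher and 5.68% lower. Gimap4 was 0.843 (0.785 to 0.904) in ribosome-rich and 0.834 (0.744 to 0.936) in ribosome-poor cells. The direction of the second value depended on the cells kept: with at most 5% mitochondrial UMIs it was 1.31. Gimap9 was 0.809 (0.714 to 0.915) and 0.796 (0.662 to 0.958), and Gimap7 in ribosome-poor cells was 1.03 after thinning to 750 UMIs. Gimap3 was at 1.002 (0.941 to 1.07) and 0.941 (0.840 to 1.05) per all UMIs, and at 0.875 and 0.923 without ribosomal and mitochondrial UMIs. The whole family lay at 1.13 (1.10 to 1.16) and 1.04 (0.990 to 1.09).

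Finer steps of ribosomal share gave the same split of Gimap5 and Gimap7 from Gimap4 and Gimap9. Kept cells were put in 5 bins (under 10%, 10 to 20%, 20 to 30%, 30 to 35% and 35% or more), with 490, 468, 457, 144 and 60 cells in the PPARg-low library and 128, 495, 312, 437 and 1261 in the PPARg-negative library. Gimap5 took 6.84 to 8.27% of the family's UMIs over the PPARg-low bins and 4.12 to 5.41% over the PPARg-negative bins, ranges that do not meet. Gimap4 took 13.1 to 16.6% and 18.6 to 20.8%, and Gimap9 4.69 to 5.96% and 6.51 to 8.08%, also without overlap. The ranges of Gimap7, 9.68 to 12.8% and 7.26 to 10.2%, overlapped. So did those of Gimap3, 15.6 to 21.6% and 15.7 to 23.5%, and of Gimap1, 21.7 to 26.0% and 21.1 to 24.1%. In CPM, the Gimap5 ratio was 1.42 to 1.65 over the bins with its interval above 1 in 5 of 5, and the Gimap7 ratio 1.21 to 1.61 with 3 of 5. Gimap4 lay between 0.577 and 0.968, with the interval below 1 in 4 of 5 bins, and Gimap9 between 0.695 and 0.811, with 2 of 5. Gimap1 lay between 0.969 and 1.16, with its interval above 1 in 1 of 5 bins. Gimap6 lay between 0.773 and 1.34, with 2 intervals above 1 and 1 below. Gimap3 lay between 0.895 and 1.04. Gimap8, at 1.13 over all cells, lay between 0.480 and 0.940, with 0 of 5 ratios above 1 and 1 interval below it. The whole family lay between 0.899 and 1.08.

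**Figure D3:**
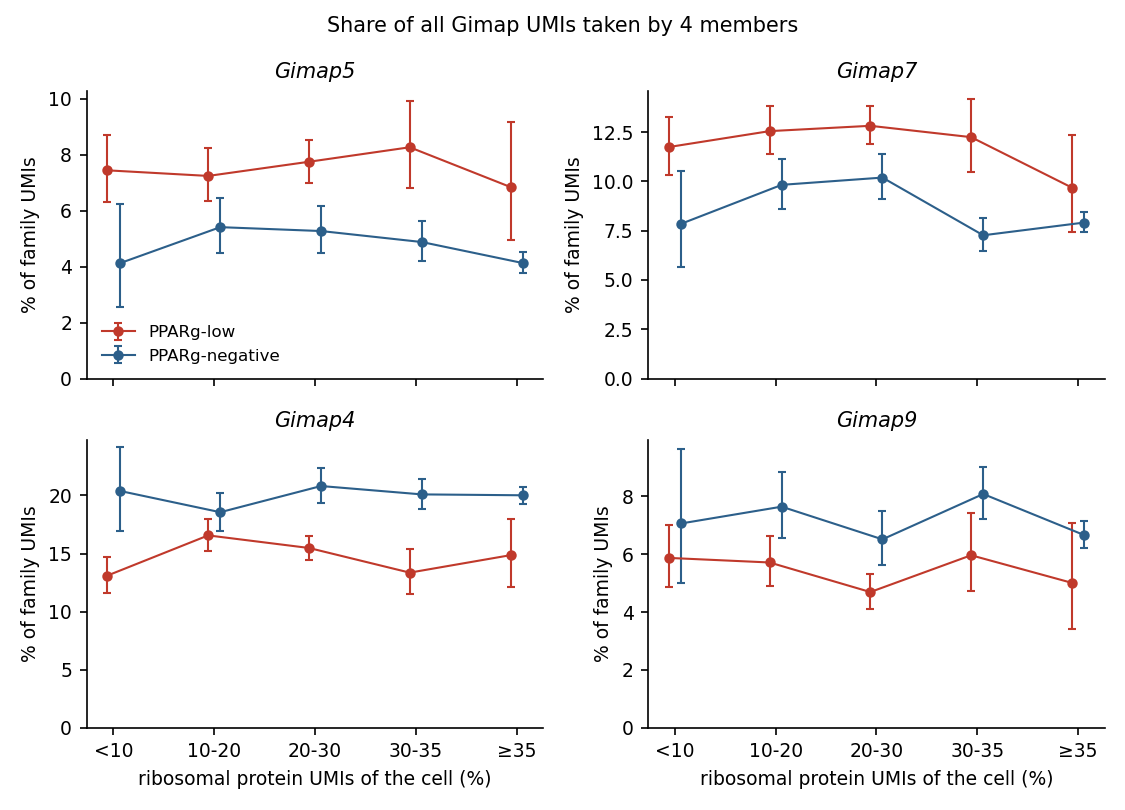
Share of all Gimap UMIs (%) taken by Gimap5, Gimap7, Gimap4 and Gimap9 in 5 bins of ribosomal protein UMI share, from low to high. Points are sums over the cells of a bin in 1 library with exact binomial 95% intervals; the Gimap5 points lie at 6.84 to 8.27% for PPARg-low and at 4.12 to 5.41% for PPARg-negative cells.

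Per all UMIs, the family was lowest in the bin richest in ribosomal UMIs of each library. Per all UMIs it was 4031, 4234, 4061, 3415 and 3162 CPM over the 5 bins of the PPARg-low library, from low to high ribosomal share, and 4485, 3904, 4207, 3567 and 3170 CPM over those of the PPARg-negative library. Per UMIs that are neither ribosomal nor mitochondrial, where more ribosomal UMIs cannot lower the value, the bins lay between 4759 and 5661 CPM in the PPARg-low and between 4874 and 5895 CPM in the PPARg-negative library, with no steady fall. Within the PPARg-low library ribosome-poor cells were at 4152 CPM and ribosome-rich cells at 3825 CPM, a ratio of 1.09 (1.05 to 1.13). The same 2 values in the PPARg-negative library were 4001 and 3382 CPM, a ratio of 1.18 (1.14 to 1.23). Without ribosomal and mitochondrial UMIs the ratios were 0.907 and 0.879, so the direction depended on the scale.

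Per all UMIs, Gimap8 was the member that differed most between ribosome-poor and ribosome-rich cells. It had 88.2 CPM in ribosome-poor and 60.0 CPM in ribosome-rich cells of the PPARg-low library, a ratio of 1.47 (1.11 to 1.95) from 103 and 104 UMIs. In the PPARg-negative library it had 112.3 and 56.7 CPM, a ratio of 1.98 (1.52 to 2.56) from 76 and 296 UMIs. On the scale without ribosomal and mitochondrial UMIs these ratios were 1.23 and 1.47. Gimap3 was at 0.902 (0.825 to 0.985) and 0.961 (0.873 to 1.05) per all UMIs, and at 0.754 and 0.714 on that other scale, where it lay farther from even than Gimap8 in the PPARg-low library. Gimap5 was at 1.02 (0.891 to 1.17) and 1.37 (1.13 to 1.64). Of the 8 members, 0 in the PPARg-low and 1 in the PPARg-negative library were higher by 1.5 times or more in ribosome-poor cells, where 30.6 and 41.7% of tested genes were; 0 were lower, where 12.8 and 11.2% were.

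Klrg1 detection went with little difference in Gimap transcripts among PPARg-low cells. The family had 3953 CPM in the 899 cells with Klrg1 UMIs and 3962 CPM in the 720 cells without, a ratio of 0.998 (0.961 to 1.04). The 8 members lay between 0.916 and 1.14, and the interval left out 1 for Gimap7 alone, at 515 and 452 CPM and a ratio of 1.14 (1.02 to 1.27). Gimap5 had 296 and 305 CPM, a ratio of 0.972 (0.848 to 1.11). Past 1.5-fold were 0 of 8 members, beside 3.11% of 3923 genes higher and 1.55% lower. In ribosome-poor PPARg-low cells the family had 4049 CPM (3905 to 4196) with and 4334 CPM (4138 to 4537) without Klrg1 UMIs. In ribosome-rich ones the order was the other way, with 3874 CPM (3747 to 4004) and 3771 CPM (3640 to 3906). Both pairs of intervals overlapped.

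The PPARg-negative library had only 141 cells with Klrg1 UMIs, and the values there are less precise. The family had 3558 CPM in them and 3448 CPM in the 2492 cells without Klrg1 UMIs, a ratio of 1.03 (0.968 to 1.10). Gimap8 was at 117 CPM (34 UMIs) and 60.3 CPM (338 UMIs), a ratio of 1.94 (1.32 to 2.77), and was the 1 member past 1.5-fold, beside 24.7% of 5279 genes higher and 10.4% lower. Gimap9 was at 165 CPM (48 UMIs) and 246 CPM (1380 UMIs), a ratio of 0.672 (0.493 to 0.897), and Gimap7 at 376 and 282 CPM, a ratio of 1.33 (1.09 to 1.62). Cells with Klrg1 UMIs were poorer in ribosomal UMIs in this library, with a median of 15.6% against 35.01%, while in the PPARg-low library the medians were 13.3 and 16.4%. The family ratio of 1.03 joined opposite directions. In ribosome-poor PPARg-negative cells the family had 3308 CPM (3038 to 3596) with and 4229 CPM (4052 to 4411) without Klrg1 UMIs. In ribosome-rich ones it had 3897 CPM (3556 to 4263) and 3369 CPM (3319 to 3420). The intervals of 4 members lay below 1 and 0 above in the former, against 0 below and 3 above in the latter. The share of all genes with such intervals was not counted, so these counts have no background. The median ratio of all genes was 1.056 in the ribosome-poor and 1.071 in the ribosome-rich cells. The cells with Klrg1 UMIs numbered 95 and 46. Within the ribosome-poor cells of this library Gimap8 was at 0.947 (0.525 to 1.63, 18 and 58 UMIs) and Gimap9 at 0.426 (0.268 to 0.650, 25 and 179 UMIs). Within its ribosome-rich cells they were at 2.37 (1.34 to 3.92, 16 and 280 UMIs) and 0.794 (0.502 to 1.20).

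**Figure D4:**
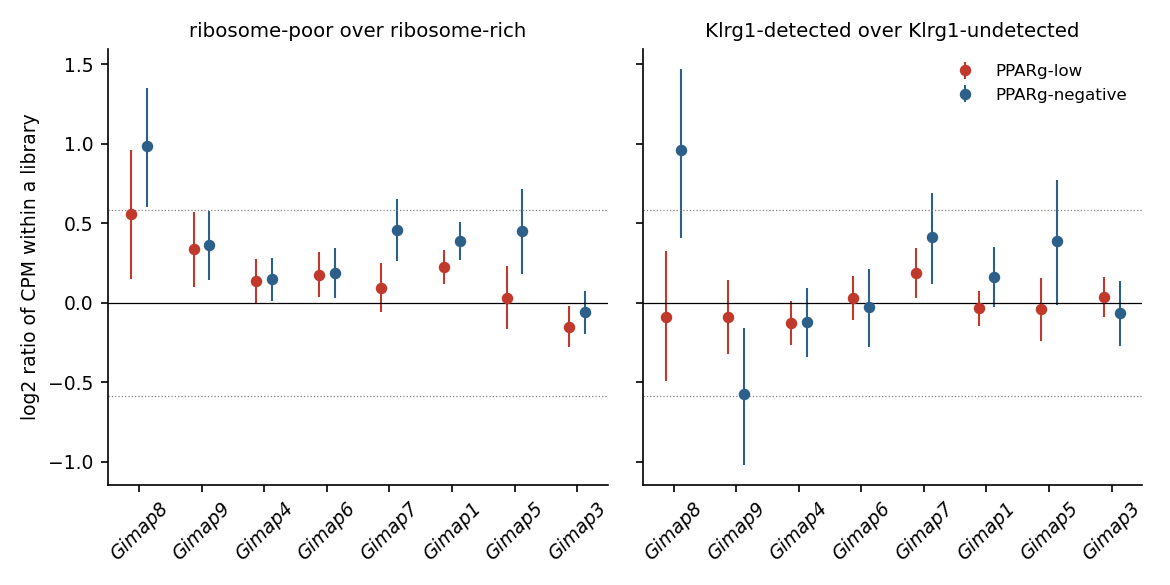
Log2 ratio of CPM of each member within a library, for ribosome-poor over ribosome-rich cells (left) and Klrg1-detected over Klrg1-undetected cells (right). Points are PPARg-low and PPARg-negative libraries with exact 95% counting intervals and dotted lines mark 1.5-fold; Gimap8 in the PPARg-negative library lies at ratios of 1.98 and 1.94.

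Between the libraries, cells matched for Klrg1 detection kept the ratio of Gimap5 above 1. Among cells without Klrg1 UMIs it was 1.96 (1.74 to 2.22) and Gimap7 was 1.60 (1.45 to 1.76), the 2 of 8 members past 1.5-fold, beside 20.7% of 5887 genes higher and 4.18% lower. Among cells with Klrg1 UMIs Gimap5 was 1.46 (1.11 to 1.94) and Gimap7 1.37 (1.12 to 1.69), under that size. Gimap8 was 0.593 (0.401 to 0.897, 115 and 34 UMIs) there, the 1 member lower by 1.5 times, beside 6.53% of 2832 genes lower and 9.57% higher. When both splits were crossed, Gimap5 lay between 1.32 and 2.12 in the 4 kinds of cells, with 3 of 4 intervals above 1, and Gimap7 between 1.27 and 1.58, also with 3 of 4. Both intervals that reached 1 were in ribosome-rich cells with Klrg1 UMIs, where the PPARg-negative library had 46 cells. Gimap9 did not keep 1 direction. Its ratio was 1.23 (0.910 to 1.71, 338 and 48 UMIs) among cells with Klrg1 UMIs and 0.883 (0.772 to 1.01) among cells without. Over the 4 kinds of cells Gimap9 lay between 0.761 and 1.498, with 2 intervals below 1 and 0 above.

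**Figure D5:**
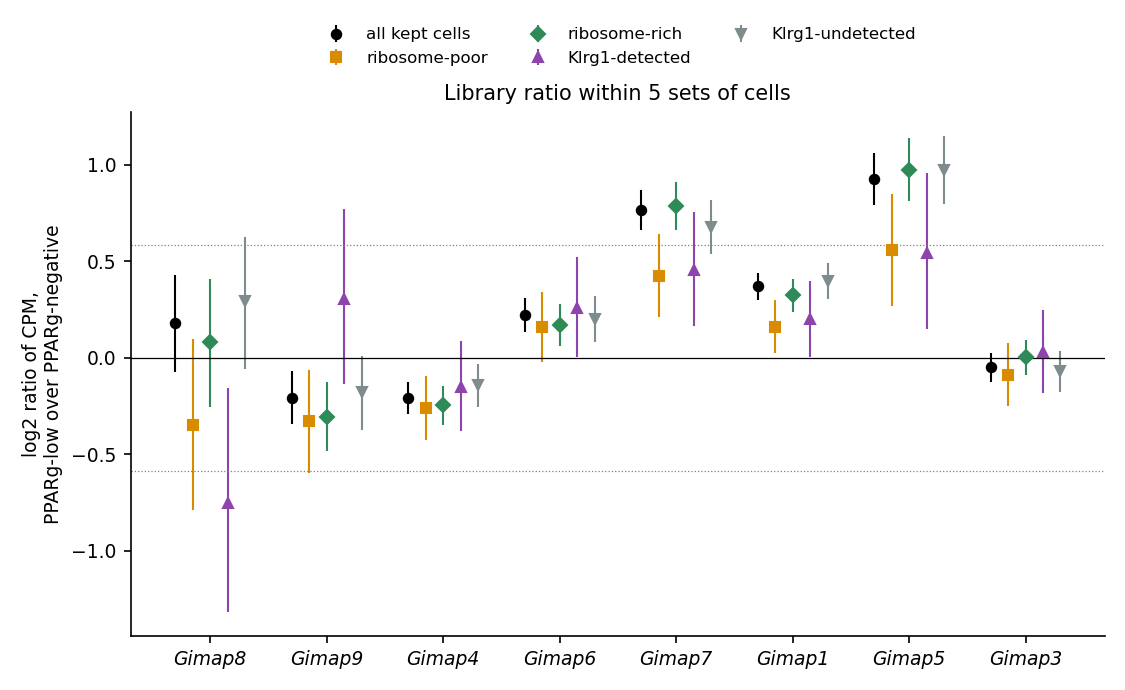
Log2 ratio of CPM, PPARg-low over PPARg-negative, for each member in 5 sets of cells. Points carry exact conditional binomial 95% intervals and dotted lines mark 1.5-fold; Gimap5 lies at ratios of 1.903 in all, 1.47 in ribosome-poor, 1.97 in ribosome-rich, 1.46 in Klrg1-detected and 1.96 in Klrg1-undetected cells.

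The family's transcripts were spread over nearly all cells. When each cell was thinned to 750 UMIs, a Gimap UMI was seen in 92.98% (91.5 to 94.3%, exact binomial) of the 1381 PPARg-low cells deep enough and in 90.3% (89.0 to 91.4%) of the 2394 such PPARg-negative cells, with means of 2.99 and 2.70 per cell and 2.28 and 2.08 members detected; thinning left out 238 and 239 shallower cells. Gimap5 was found in 19.0% (17.0 to 21.2%) and 10.4% (9.17 to 11.6%) of these cells, and Gimap7 in 26.6% (24.3 to 29.1%) and 18.5% (16.9 to 20.1%). Gimap4 was found in 31.7% (29.3 to 34.2%) and 39.5% (37.5 to 41.5%). The intervals overlapped for Gimap9, seen in 15.1% (13.3 to 17.1%) and 17.3% (15.8 to 18.9%). Without thinning Gimap5 was found in 36.4 and 26.5% of cells and Gimap4 in 51.9 and 69.6%. Sorting left no second cell type as a gauge of free RNA. At 750 UMIs per cell, UMIs of the B cell genes Cd79a and Cd79b were in 0.217 and 0.0835% and in 2.53 and 1.84% of cells. Those of Cd8b1, a CD8 T cell gene, were in 2.17 and 1.504% and those of Lyz2, a myeloid gene, in 0.0724 and 0.0835%, against 6.30 and 5.89% for Gimap8, the member found in the fewest cells.

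Over 8 sets of cells (library by Klrg1 detection by ribosomal share) the members' levels were set beside each other as centred log2(CPM + 10). The closest of the 28 pairs were Gimap1 and Gimap6, with a root mean square distance of 0.12, and Gimap5 and Gimap7, with 0.14. The farthest were Gimap5 and Gimap8, with 0.57, and Gimap5 and Gimap9, with 0.50. Some sets held few UMIs, so counting error is part of these distances. In ribosome-poor and ribosome-rich PPARg-negative cells with Klrg1 UMIs, Gimap8 had 18 and 16, Gimap9 25 and 23 and Gimap5 33 and 26. Of 3304 other genes with 300 or more UMIs, those nearest to the summed family were Mdp1 at 0.07, Hnrnpul1, Ankrd10 and Mfng at 0.08, and Ap3b1 and Dars at 0.09. These sets come from 2 libraries and the family varied little, so the ranking is a description only.

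Genes around the family in function, and genes listed as its neighbours on the chromosome, were described from gene lists chosen with earlier results of these data known. Of 18 BCL2 family and autophagy genes, 5 had at least 1.5 times the level in PPARg-low cells and 2 were lower by as much; their median log2 ratio was 0.28, beside 0.27 over all genes. Over all tested genes 23.3% were higher and 4.36% lower by that size, so 5 of 18 is near the background. Bcl2, which protects cells from death, had 357 and 2930 UMIs and a ratio of 0.248 (0.221 to 0.276), while its relative Bcl2l1 had 170 and 161 UMIs and 2.15 (1.72 to 2.68). The autophagy genes Map1lc3a and Gabarapl1 were at 3.08 (2.18 to 4.40) and 2.09 (1.49 to 2.94), and Gabarapl2, the reported partner of GIMAP6, at 0.953 (0.865 to 1.05). Of 14 tested interferon-inducible GTPases 1 was higher and 3 lower (median 0.17), with Gbp7 at 1.81 (1.62 to 2.03) and Irgm1 at 0.635 (0.487 to 0.820). The copies Tgtp1 and Tgtp2, at 0.417 and 0.660, are nearly identical, so their counts are uncertain. For these GTPases 1 of 14 higher is under the 23.3% of all genes. The 3 of 14 lower are over the 4.36%, but they include the uncertain Tgtp1 and Tgtp2. Of 6 tested septins 2 were higher and 0 lower (median 0.05), Sept11 at 1.74 (1.35 to 2.24) and Sept2 at 1.73 (1.40 to 2.14). Of 16 genes of resting T cells 1 was higher and 12 lower, with a median of -1.39, against 0.20 for the Gimap members.

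Genes listed as neighbours of the cluster were hardly detected, and the positions of most of them were not checked. Of 13 listed neighbours in the files, Lrrc61 alone had 100 or more UMIs, at 86 and 138 UMIs and a ratio of 1.27 (0.956 to 1.67). The long noncoding RNA gene 4833403J16Rik, which starts 1128 bases past the end of Gimap5 on the same strand, had 43 UMIs in the PPARg-low and 41 in the PPARg-negative library, a ratio of 2.13 (1.36 to 3.35); it was under the minimum of 100 UMIs and was singled out after its value was seen.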

How the data were processed

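The authors deposited UMI counts, not normalized, for 2 libraries; per the labels, Chromium Single Cell 3′ v2 chemistry was used, and per the submitters' processing notes the counts came from Cell Ranger 2.1.0 with mm10. For the annotation, the cell calling and doublets, no settings are stated in the labels. Kept cells had 200 or more genes and at most 10% mitochondrial UMIs, which removed 373 PPARg-low and 269 PPARg-negative barcodes. The libraries shared 5 barcode sequences. No doublet caller was run; leaving out the deepest 1% of cells was tried instead.

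UMIs were summed over the cells of a set. Ratios carry exact conditional binomial intervals, levels exact Poisson and shares exact binomial intervals, at 95%. Ribosomal genes were 86 genes of cytosolic ribosomal proteins. A gene with 100 or more UMIs was called by size alone, at 1.5-fold, and a group at 0 entered at a floor of 3 counts. Ratios and their intervals were tested on Poisson counts simulated from the pooled profile, and thinning was checked on the PPARg-low matrix. The intervals assume such counts, so the simulation could not check them against spread between cells or replicates. Before thinning, the variance of family UMIs per cell was 4.33 times its mean in the PPARg-low and 3.08 times in the PPARg-negative library. The members and lists were chosen with earlier results of these data known. The named genes are the members, up to 4 genes of a list with the largest ratios in either direction, and the 6 genes nearest to the family; Gabarapl2 was named after its value was seen. Positions are from GENCODE M21 (mm10), start regions from RefSeq (GRCm38.p6), with all 8 members matched; protein sequences were not used here. Alternatives covered cell filters, scaling, the weight of cells, depth and both splits. Scripts ran in Python 3.11.15 with scipy 1.17.1 for the intervals, numpy 2.4.6 and pandas 2.3.3 for the sums, and plots were drawn with matplotlib 3.10.9.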

Additional observations from a re-analysis of the deposited data

How the results depend on the processing

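Over all cells, Gimap5 stayed at 1.5-fold or more under 9 of 9 alternatives (1.58 to 1.97) and Gimap7 under 7 of 9 (1.41 to 1.78), while Gimap4 lay between 0.718 and 0.924 and Gimap9 between 0.719 and 0.868. Gimap6 and Gimap8 turned to 0.967 and 0.938 relative to the median gene. In ribosome-poor cells Gimap4 (0.834) turned to 1.31 with at most 5% mitochondrial UMIs, and Gimap7 (1.34) was 1.03 after thinning; in Klrg1-detected cells Gimap7 (1.37) was 1.02 thinned. The family ratio of PPARg-low over PPARg-negative cells, 1.15, was 0.964 per UMIs that are neither ribosomal nor mitochondrial, 0.951 relative to the median gene, 1.11 as a mean of per-cell CPM and 1.11 after thinning to 750 UMIs. In ribosome-poor cells, 1.04 became 1.10 with at least 500 genes per cell, 1.20 with at most 5% mitochondrial UMIs, 0.981 as a per-cell mean and 0.978 with the split at 15%. In ribosome-rich cells, 1.13 became 0.987 on the non-ribosomal scale, 0.976 relative to the median gene, 1.09 thinned and 1.23 with the split at each library's median. In Klrg1-detected cells, 1.11 became 1.01 as a per-cell mean, 1.01 thinned and 1.02 with Klrg1 read at 750 UMIs; in Klrg1-undetected cells, 1.15 became 0.978 on the non-ribosomal scale, 0.964 relative to the median gene and 1.11 thinned.

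For Klrg1-detected over Klrg1-undetected cells, the PPARg-low value of 0.998 became 0.960 on the non-ribosomal scale and 1.05 with Klrg1 read at 750 UMIs. The PPARg-negative value of 1.03 became 0.856 on that scale, 0.893 relative to the median gene, 1.10 as a per-cell mean, 1.11 thinned and 1.17 with Klrg1 read at 750 UMIs. For ribosome-poor over ribosome-rich cells, the PPARg-low value of 1.09 became 1.03 over all barcodes, 1.18 with at most 5% mitochondrial UMIs, 0.907 on the non-ribosomal scale, 0.936 relative to the median gene, 1.04 with the split at 15% and 1.04 with it at the median. The PPARg-negative value of 1.18 became 1.11 with at least 500 genes, 1.12 with at most 5% mitochondrial UMIs, 0.879 on the non-ribosomal scale and 0.889 relative to the median gene. The causes were not tested.

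Genes 1.5-fold or more apart between the libraries numbered 1868 at 100 UMIs, 3047 at 30 and, in an alternative chosen after seeing the data, 527 at 500 UMIs, since fewer genes were then tested. No paired analysis was possible because each group held 1 library. For the same reason no replicate could be left out, and the intervals cover counting error alone. Gimap8 and the 141 Klrg1-detected PPARg-negative cells gave the fewest UMIs and the widest intervals.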
